A study of Mus musculus with 16 samples.

Results

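The 8 liver tumours of Axin1-deleted mice fell into 4 with little Cyp4a12a RNA and 4 with as much Cyp4a12a as liver, and the comparison of these sets over all annotated genes is described here. The members were chosen by a measured value: a tumour array whose deposited log2 value of Cyp4a12a was below 7 was called Cyp4a12a-low and the others Cyp4a12a-high. Of 16 arrays in all, 8 were tumours, 4 in each set. The Cyp4a12a-low tumours came from mice 90, 123, 81 and 121 (the unnumbered tumour of that mouse). The Cyp4a12a-high tumours came from mice 124 and 93 and from mouse 121 again (its tumours 2 and 3), so mouse 121 stands on both sides and 6 mice gave the 8 tumours.

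All tumours were from male mice aged 16 months. These mice carried Axin1 fl/fl alleles and the Alfp-Cre transgene, which expresses Cre recombinase in embryonic hepatocytes, and such mice develop liver tumours after 9 months. The 8 other arrays held liver of males of the same age: 5 adjacent livers of deleted mice (121, 124, 123, 1931 and 81) and 3 control livers of mice without the deletion (10, 11 and 12), whose alleles are not described further. Cells that never expressed this Cre keep Axin1 in the deleted mice, and each tumour was 1 array of bulk tissue, so fewer cells of a type and less RNA per cell cannot be told apart.

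Axin1 holds together the proteins that send beta-catenin for destruction. In the liver, beta-catenin drives the genes of hepatocytes around the central vein, among them Glul, glutamine synthetase. Cyp4a12a, a hydroxylase of fatty acids, belongs to the genes that male mouse liver expresses under the pulses of growth hormone that act through STAT5. H19, an imprinted RNA, is abundant in fetal liver and nearly silent in adult liver, and hepatocytes that lose their adult programme can express it again.

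Cyp4a12a read 2.88, 4.94, 3.55 and 4.68 in the Cyp4a12a-low tumours 90, 123, 81 and 121. It read 9.84, 8.95, 9.16 and 8.95 in the Cyp4a12a-high tumours 124, 93, 121 number 2 and 121 number 3, the order used throughout for both sets. The values nearest the threshold were 4.94 below it and 8.95 above it, and the 8 livers lay between 8.79 and 9.88. The related Cyp4a12b, also left out of the comparison, read 4.30, 4.87, 5.59 and 4.72 in the low set and 8.65, 7.74, 6.92 and 8.73 in the high set. Because the arrays were set apart by one of their own values and mouse 121 lies on both sides, every difference between the sets is given as a description with no test. The sets hold samples picked for an outcome, and the values show what else went with it.

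A gene was counted where its 4 values in one set all lay below its 4 values in the other and the set means differed at least 2-fold. Of 23277 genes, 180 were lower in the Cyp4a12a-low tumours (0.773%) and 136 were higher (0.584%). Without the fold threshold the sets did not overlap in 848 genes that were lower (3.64%) and 708 that were higher (3.04%). At least 4-fold differences numbered 38 lower and 32 higher. The counts rose most when either of 2 arrays of the low set was left out, although fewer arrays also make it easier for sets not to overlap. Leaving out the unnumbered tumour of mouse 121 gave 312 lower and 223 higher, and leaving out tumour 81 gave 251 lower and 227 higher.

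The livers, which the rule did not use, show on which side the difference lies. In 133 of the 180 lower genes all 4 Cyp4a12a-low tumours were below every liver, and in 100 of the 136 higher genes all 4 were above every liver. The mean of the Cyp4a12a-high set lay within the range of the livers in 141 of the 180 and in 96 of the 136. By the stricter measure, all 4 Cyp4a12a-high tumours lay within that range in only 56 of the 180 and 49 of the 136. The share of all genes within the range was counted for neither measure, so whether these numbers are unusual is not known. Over all genes, the low set lay wholly below the livers in 844 (3.63%) and wholly above in 659 (2.83%), and the high set in 130 (0.558%) and 218 (0.937%). Control liver 10, an array high in inflammatory genes, widened these ranges: without it the counts of 133 and 100 became 141 and 111.

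**Figure D1:**
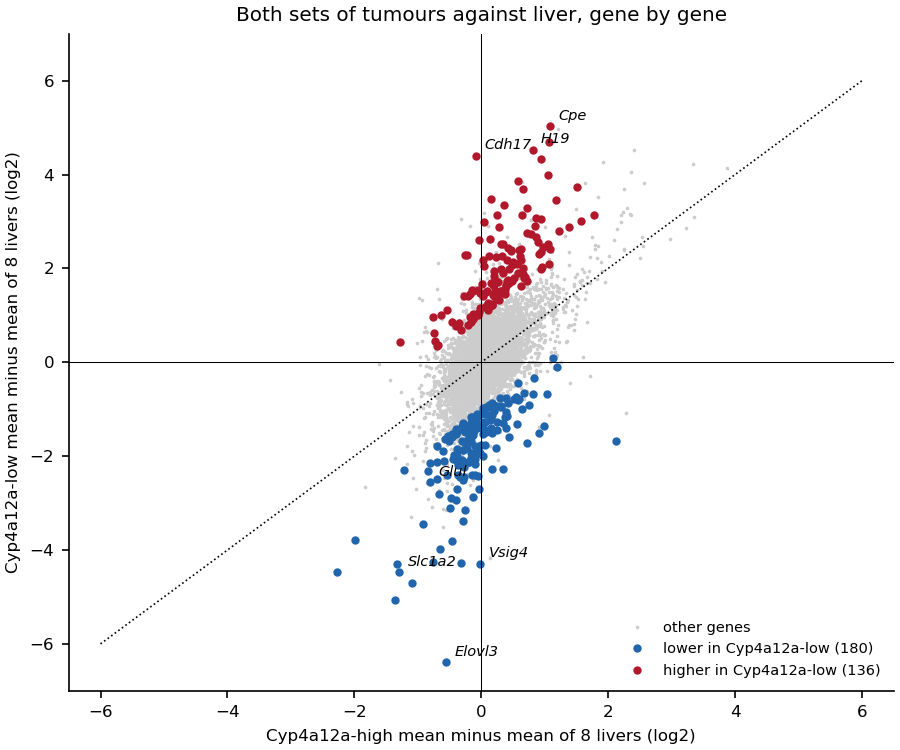
Each point is a gene, with the mean of the 4 Cyp4a12a-high tumours (horizontal) and of the 4 Cyp4a12a-low tumours (vertical) as log2 differences from the mean of the 8 livers. The 180 lower and 136 higher genes spread mainly along the vertical axis, and the dotted line marks equal differences. Vertically, Elovl3 lies near the bottom (-6.39), and Cpe (5.03), H19 (4.53) and Cdh17 (4.40) lie near the top.

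The 2 sets were not uniform inside. Against the mean of the adjacent livers, 1870 genes of tumour 90, 1611 of tumour 81, 1572 of tumour 123 and 1068 of the unnumbered tumour of mouse 121 differed at least 2-fold. The Cyp4a12a-high tumours differed in 846 (121 number 2), 576 (124), 431 (121 number 3) and 195 (93), while single adjacent livers differed in 145 to 432 and controls in 211 to 658. In 114 of the 180 lower genes the unnumbered tumour of mouse 121 was the low-set array nearest to the other set. Over these 180 genes its median difference from the liver mean was -1.002, against -1.91 for tumour 90, -1.67 for tumour 123 and -1.58 for tumour 81. The first principal component of the 8 tumours (32.95% of the variance) ran from tumour 90 at 53.3 through 123 at 36.3, 81 at 21.2 and 121 at 1.48 to the high set between -20.3 and -34.6. The second (21.3%) set tumour 81 apart at -63.6. By correlation over all genes, the unnumbered tumour of mouse 121 was nearest to a high-set array, tumour 3 of that mouse (0.980). Its correlations with tumours 90, 123 and 81 were 0.966, 0.977 and 0.962. Tumour 81 was also nearest to tumour 3 of mouse 121 (0.963), whereas tumours 90 and 123 were nearest to low-set arrays (0.974 and 0.977).

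The word dedifferentiated, which served as a working name for the Cyp4a12a-low tumours, was borne out by some hepatocyte genes and not by others. Albumin (Alb) read 12.58, 12.45, 11.89 and 12.47 in the low set and 12.50, 12.48, 12.34 and 12.38 in the high set, near the top of the measured range, where arrays compress differences. Hnf4a, the nuclear receptor that maintains hepatocyte identity, read 10.10, 9.97, 9.61 and 9.82 against 9.68, 9.59, 10.03 and 9.81. Both genes overlapped between the sets. Of 25 hepatocyte transcription factors and nuclear receptors 0 were counted in either direction (median difference of set means -0.15, against 0.01 over all genes). Gata4 came nearest, at -0.72, with sets that did not overlap. Of 34 secreted hepatocyte proteins 2 were lower, Apoa5 (-1.73) and the complement component C8b (-1.02), and 1 was higher, Apoa4, an apolipoprotein of triglyceride-rich particles (1.01). Tumour 81 was the lowest array in both lists, at -0.50 for each list mean against the control mean. The sets are therefore called by their rule.

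**Figure D2:**
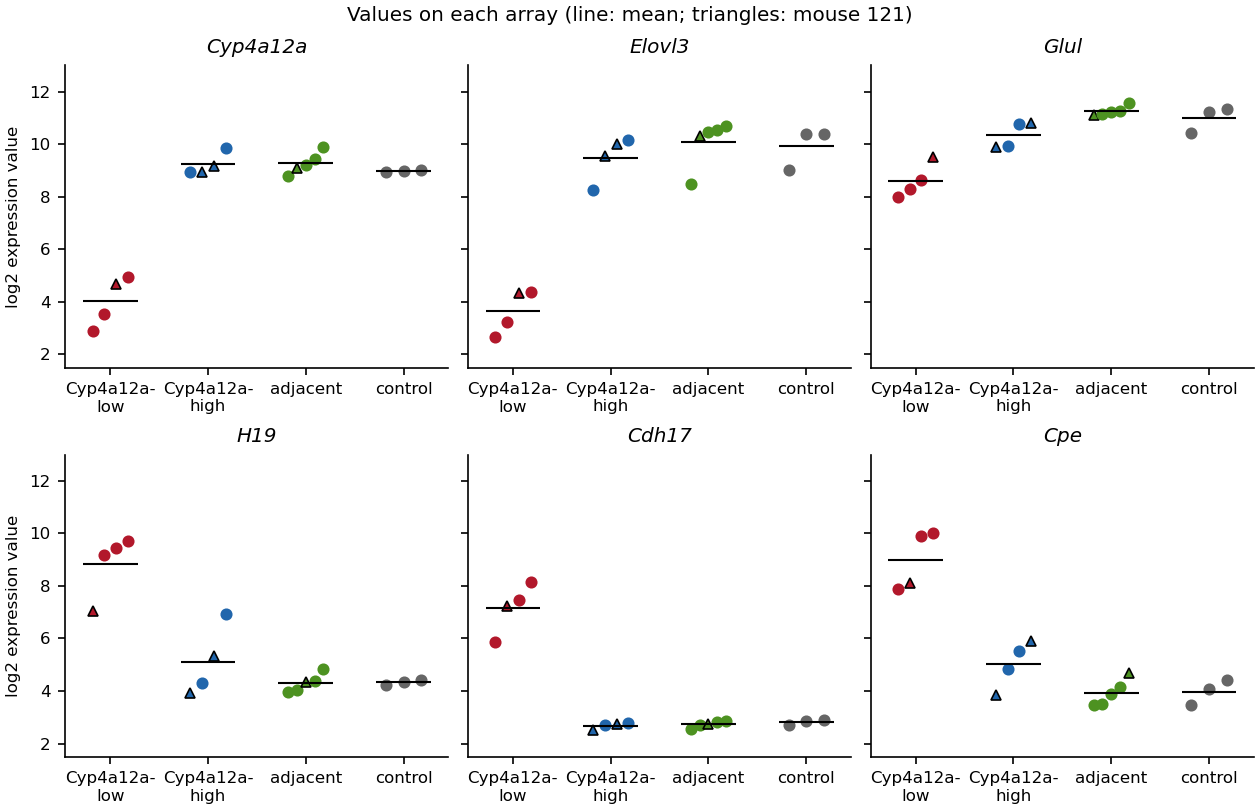
Log2 values of 6 genes on every array, grouped as Cyp4a12a-low and Cyp4a12a-high tumours, adjacent liver and control liver, with the group mean as a line and the arrays of mouse 121 as triangles. Cyp4a12a, Elovl3 and Glul are low and H19, Cdh17 and Cpe high in the 4 Cyp4a12a-low tumours, and in Cdh17 the Cyp4a12a-high tumours (2.50 to 2.77) lie close to the livers (2.56 to 2.90), with tumour 2 of mouse 121 just below them.

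Genes that male liver expresses more than female liver held more lower genes than any other of the 38 lists. By share, this list (57.9%) stood next to that of sinusoidal endothelial markers (58.8%). Cyp4a12a, which set the arrays apart, is itself a male-biased gene, so the list is not independent of the choice. Of 19 such genes other than the Cyp4a12 pair, 11 were lower and 0 higher (median difference -1.41). Elovl3, an elongase of very long fatty acids, read 2.67, 3.22, 4.35 and 4.33 in the Cyp4a12a-low tumours and 8.27, 10.14, 9.99 and 9.53 in the others, a 57.2-fold difference of means. It was the largest decrease without overlap among the genes named here, and the livers lay between 8.48 and 10.70. Mup21, a major urinary protein, read 2.75, 6.51, 5.45 and 4.64 against 8.33, 9.33, 7.46 and 7.54. Slco1a1, an organic anion carrier, was 7.89-fold lower and Keg1 5.23-fold lower. The list mean against the control mean ran from -2.81 to -2.04 in the low set and from -1.21 to -0.16 in the high set, and from -0.91 to 0.56 in the livers.

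Female-biased genes were not a mirror of this. Of 28, 0 were counted (median 0.01). Cyp2b9, a P450 of female liver, read 9.50, 8.46, 3.73 and 7.68 in the low set and 3.77, 9.06, 3.39 and 4.16 in the high set, so it was high in tumours 90, 123, 121 and also 93. Akr1c18, a hydroxysteroid dehydrogenase, had the same 4 high tumours, at 9.83, 9.91, 9.50 and 7.85, and 3.05 to 3.80 in the other 4. Of the growth hormone axis 3 of 15 genes were lower. Ghr, the growth hormone receptor, read 8.86, 8.91, 8.93 and 9.34 against 9.88, 10.36, 10.003 and 10.09, and the livers 10.15 to 10.63. Igfals, which stabilises circulating IGF1, was lower by 3.65-fold and Bcl6, a repressor that opposes STAT5 in liver, by 2.92-fold. The median of that list was -0.01, and the other 12 genes were not counted.

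Enzymes of drug and steroid metabolism were among the lower genes. Of 27 cytochrome P450 genes of families 1 to 3, 8 were lower and 0 higher (median -0.75). Cyp2c50, an epoxygenase, read 5.12, 4.87, 2.89 and 6.66 against 9.03, 9.53, 9.07 and 7.71, and its neighbour in function Cyp2c54 was 11.3-fold lower. Tumour 81 had the lowest list mean, -1.85, where the 3 other low-set tumours lay between -0.89 and -0.62. Many Cyp2c genes are near-identical copies, and how far their probe sets tell them apart is not known. Among 13 genes of family 4 besides the pair, 0 were lower and 1 was higher, Cyp4f16 (3.83-fold; 5.25 and 5.49 in tumours 124 and 93, but 7.26 and 6.60 in tumours 2 and 3 of mouse 121). Other enzymes with large differences were the sulfotransferase Sult2a8 (12.1-fold lower) and the carboxylesterase Ces3b (13.1-fold lower). Cib3, of the calcium and integrin binding family, was 13.9-fold lower. Its difference lay on both sides of liver: the set means differed from the liver mean by -1.67 in the low set and 2.13 in the high set.

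A minority of carriers and bile acid genes was lower as well. Of 26 conjugating enzymes and transporters 6 were lower and 0 higher (median -0.58), led by the glycosyltransferase Ugt3a1 (8.58-fold). Slc10a1, the main importer of bile salts, read 8.94, 6.89, 7.85 and 9.13 against 9.86, 10.71, 9.39 and 10.01, and Slco1b2, which imports organic anions, was 3.54-fold lower. Of 17 bile acid genes 6 were lower and 1 higher (median -1.07). Baat, which conjugates bile acids to amino acids, was 3.005-fold lower, Abcb11, the canalicular bile salt export pump, 2.61-fold lower and Akr1d1, a reductase of the synthesis pathway, 2.37-fold lower. The higher member, Cyp39a1, hydroxylates an oxysterol on the way to bile acids and read 9.76, 8.61, 7.20 and 7.75 against 6.99, 6.94, 6.48 and 6.68. It lay at 4.57 to 7.41 in the livers.

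Of 22 pericentral genes and targets of beta-catenin 3 were lower in the low set and 0 higher (median -0.25). Glul read 8.29, 8.65, 7.98 and 9.51 in the Cyp4a12a-low tumours and 9.93, 10.76, 9.90 and 10.79 in the Cyp4a12a-high tumours, a 3.33-fold difference, and all 4 low-set values lay below the livers (10.42 to 11.55). Slc1a2, a glutamate transporter of the same hepatocytes, read 4.22, 4.20, 4.40 and 4.12 against 6.87, 7.83, 7.76 and 7.17. Here the high set too was below every liver (8.23 to 9.24). Cyp2e1, which oxidises ethanol, was 3.80-fold lower. Glul, Slc1a2 and Cyp2e1 were the 3 members counted. Oat, ornithine aminotransferase, was low in tumours 90, 123 and 121 (5.94, 6.73 and 6.21) but read 11.75 in tumour 81, above the high set (9.97 to 10.98). The classical feedback targets, named here for their role and after their values were seen, overlapped between the sets. Axin2 read 4.73, 4.65, 4.89 and 4.90 against 5.17, 4.98, 4.89 and 4.97, and Lgr5, a receptor for R-spondins, differed by -0.31 and Tbx3 by -0.22. Axin1 itself overlapped as well, at 4.81, 4.58, 4.65 and 4.36 against 3.95, 4.35, 4.07 and 4.41, with adjacent livers at 3.90 to 4.39 and controls at 5.07 to 5.48. Which exons its probe set covers is not known.

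The promoter of Slc1a2 is shown because it holds the motif CTTTGAT (either strand), the core that TCF partners of beta-catenin bind, here as its reverse complement in capitals. The 300 bases run from 250 before to 50 after the start (RefSeq, GRCm38.p6, chr2:102706188-102706487, plus strand).
Slc1a2: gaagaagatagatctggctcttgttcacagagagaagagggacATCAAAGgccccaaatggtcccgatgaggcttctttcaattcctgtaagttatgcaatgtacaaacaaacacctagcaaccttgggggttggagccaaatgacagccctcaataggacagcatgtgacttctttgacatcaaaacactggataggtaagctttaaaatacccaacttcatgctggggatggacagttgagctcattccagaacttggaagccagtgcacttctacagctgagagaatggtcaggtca
The motif stood in a window of 8 of the 138 lower genes with a promoter entry (5.8%), of 2 of 99 higher genes (2.02%) and of 3.83% of the 17466 genes with an entry. The motif TTCNNNGAA of STAT factors stood in 8.7% of the lower, 10.1% of the higher and 9.07% of all. These shares describe letters in a window and are no measure of binding.

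Genes of amino acid, fatty acid and periportal metabolism mostly had lower means in the low set, but few were counted. Of 28 genes of the urea cycle and amino acid breakdown, 27 had a lower mean in the low set (median -0.55), but 1 was counted, the pyrimidine-degrading Dpys (2.95-fold). Otc, of the urea cycle, read 9.08, 9.43, 9.60 and 10.02 against 10.31, 10.59, 10.55 and 10.38, sets that did not overlap at less than 2-fold. Tumour 81 had a list mean of -0.01, at the level of control liver, whereas tumours 90, 123 and 121 were at -1.35, -1.16 and -0.70. All 20 genes of the PPARalpha and fatty acid oxidation list had a lower mean (median -0.69), and 2 were counted, the peroxisomal thiolase Acaa1b (3.23-fold) and the thioesterase Acot1 (2.94-fold). The low set ran from -0.59 to 0.42 against controls and the high set from 0.46 to 0.82, within the span of the adjacent livers (0.24 to 0.84). Of 17 periportal genes 1 was lower, the lysophospholipid carrier Mfsd2a (5.42-fold). The lists of lipogenesis (24 genes, median -0.20) and cholesterol synthesis (18 genes, median -0.46) had 0 counted. Sqle, of cholesterol synthesis, read 9.77, 9.67, 8.03 and 9.44 against 9.46, 9.22, 8.83 and 8.70.

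**Figure D3:**
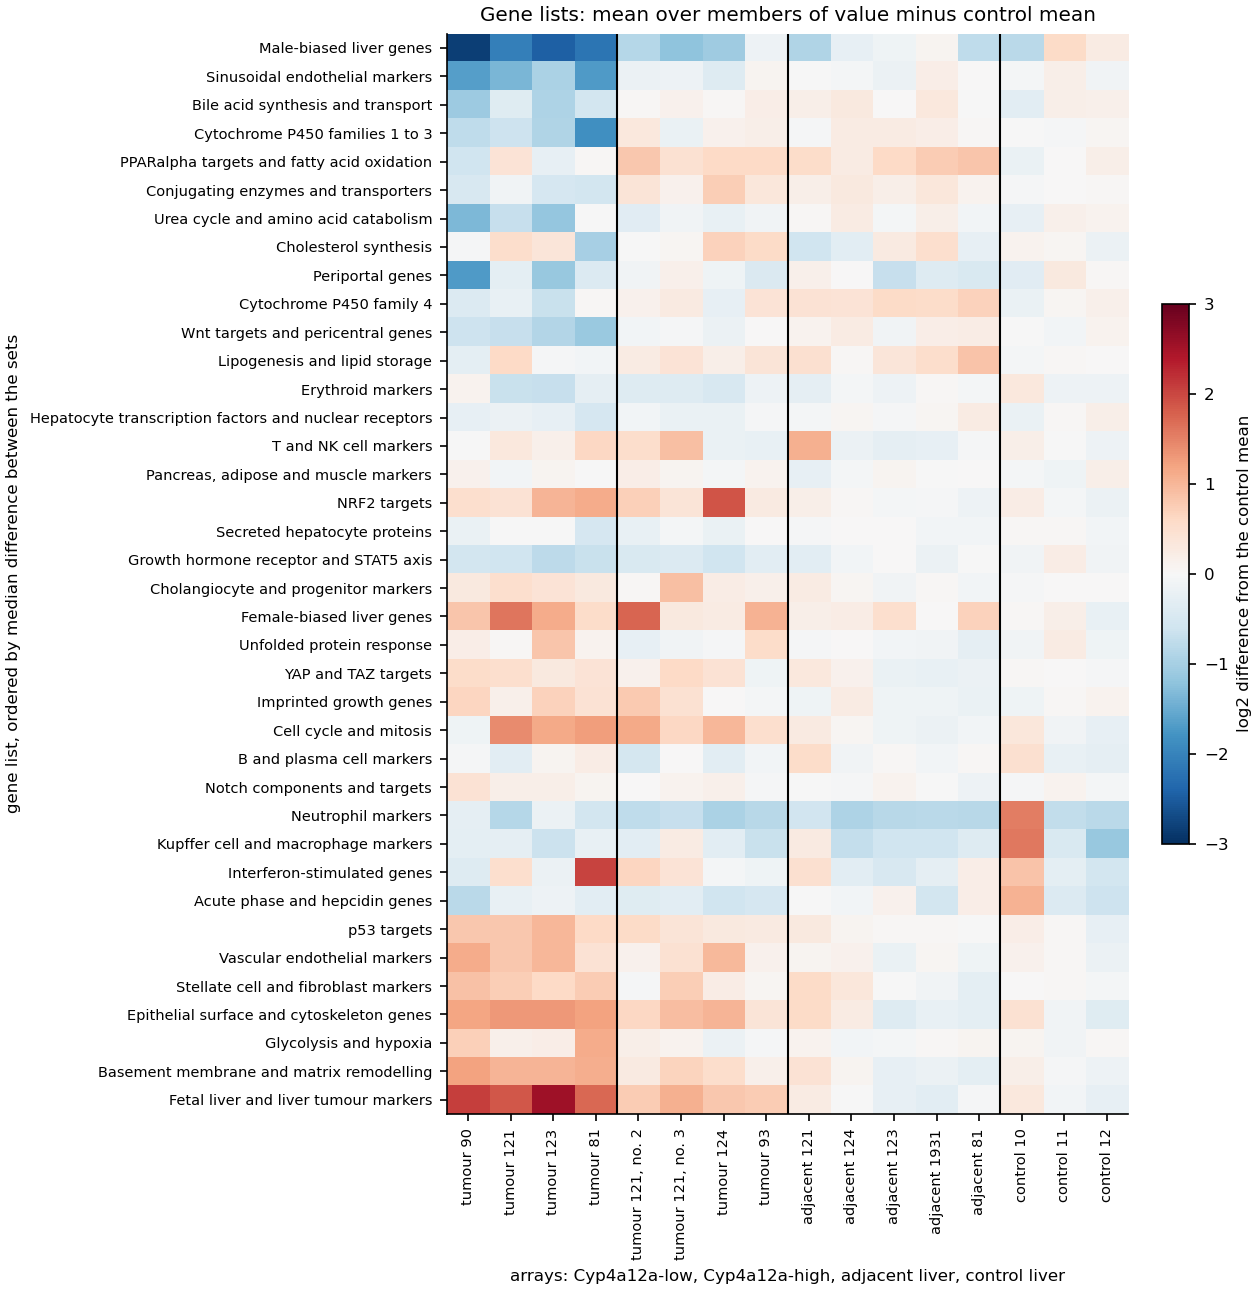
Mean over the members of each of 38 gene lists of the value minus the control mean (log2, colour), for each array. Male-biased genes and sinusoidal markers are lower, and fetal and tumour markers higher, in each of the 4 Cyp4a12a-low tumours than on any other array. Single arrays stand out elsewhere, such as tumour 81 in interferon-stimulated genes (2.02) and control 10 in neutrophil markers (1.53).

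Among the higher genes, fetal liver and tumour markers were a main group, with 6 of 26 higher and 0 lower (median 0.99). H19 read 9.19, 9.72, 9.44 and 7.05 in the low set and 4.30, 6.93, 3.93 and 5.34 in the high set, with the livers at 3.97 to 4.83. The gap between the sets was narrow, from 7.05 in the unnumbered tumour of mouse 121 to 6.93 in tumour 93. Afp, alpha-fetoprotein, which was named after its values were seen, read 6.05, 9.23, 5.99 and 6.66 against 5.24, 5.62, 5.08 and 4.92, with tumour 123 far above the rest. Tff3, a trefoil peptide of mucosal surfaces, was 12.3-fold higher, but its livers spread from 4.56 to 9.55. Bex1 was 5.91-fold higher and Lcn2, a siderophore-binding lipocalin, 4.31-fold higher.

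Among the genes named by the rule, the 3 largest increases without overlap were those of Cdh17, Cpe and H19. Cdh17, a cadherin of intestinal epithelium, read 8.16, 7.47, 5.86 and 7.22 against 2.72, 2.77, 2.50 and 2.75, a 22.4-fold difference. Cpe, a carboxypeptidase that processes prohormones, read 9.89, 10.004, 7.90 and 8.10 against 5.52, 4.86, 3.86 and 5.89. Csn3, kappa-casein, was 10.5-fold higher and Slpi, an inhibitor of leukocyte proteases, 8.19-fold higher. For these 4 genes, as by construction for all that were counted, no low-set tumour reached a high-set value. Ier3, an immediate early gene, was 10.01-fold higher, Igfbp1, a binding protein of insulin-like growth factors, 7.44-fold and Kif5c, a kinesin of neurons, 7.73-fold. Stc1, the hormone stanniocalcin, read 9.25, 7.38, 6.20 and 4.81 against 4.18, 3.87, 3.37 and 4.23, widest in tumour 90. Of 22 genes of epithelial surface and cytoskeleton 5 were higher (median 0.42), among them the tetraspanins Cd9 (3.46-fold) and Cd63 (2.58-fold), S100a6 (2.78-fold) and vimentin, Vim (2.56-fold). The cholangiocyte markers Krt19 and Krt7 differed by -0.07 and 0.18, and 0 of 14 on that list were counted.

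Glucose metabolism and stress genes contributed fewer. Pkm, the pyruvate kinase that adult hepatocytes hardly use, read 8.81, 8.59, 9.47 and 8.03 against 7.17, 7.07, 6.86 and 7.25, and Slc2a2, the glucose transporter of hepatocytes, was 3.65-fold lower. Of 20 genes of glycolysis and hypoxia 3 were higher and 1 lower (median 0.45). Ankrd37, a hypoxia-responsive gene, stood at 8.45 in tumour 90 and at 4.90, 6.23 and 4.59 in the other 3 low-set tumours. Of 16 p53 targets 3 were higher, the antiproliferative Btg2 (4.06-fold), Phlda3 (2.40-fold) and the death receptor Tnfrsf10b (2.17-fold). Of 21 YAP and TAZ targets 1 was higher, Igfbp3 (4.64-fold). NRF2 targets (18 genes), the unfolded protein response (20), Notch genes (17) and imprinted growth genes (19) had 0 counted. H19, itself imprinted, was listed with the fetal markers and is not among those 19. Proliferation did not separate the sets: 0 of 37 cell cycle genes were counted (median 0.06). Tumour 90 was at -0.12 on that list, whereas the 7 other tumours lay between 0.52 and 1.42.

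Endothelial markers of the liver sinusoid were lower in the Cyp4a12a-low tumours. Of 17, 10 were lower and 0 higher (median -1.36). Clec4g, a lectin of sinusoidal endothelium, read 4.08, 5.41, 3.98 and 5.23 against 7.46, 8.52, 8.14 and 7.95, and the livers 8.28 to 8.93. Stab2, the scavenger receptor that defines these cells, read 5.17, 6.10, 4.61 and 5.60 against 7.01, 7.34, 7.38 and 7.09. Dnase1l3, an extracellular nuclease, was 5.02-fold lower, Ehd3 4.03-fold and Oit3 3.81-fold. General endothelial genes were not lower together. Of 16 vascular markers 1 was higher, Esm1 of sprouting vessels (2.97-fold), and Cdh5, the cadherin of all endothelium, read 9.03, 8.67, 8.30 and 8.68 against 8.24, 7.69, 7.83 and 8.05. Tek, the angiopoietin receptor, was 1.96-fold lower without overlap. The mean of the sinusoidal list against control ran from -1.69 to -0.95 in the low set, from -0.40 to 0.08 in the high set and from -0.17 to 0.21 in the livers, and that of the vascular list from 0.44 to 1.11 and from 0.12 to 0.96 in the 2 sets.

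Of 20 Kupffer cell and macrophage markers 3 were lower and 1 was higher. Vsig4, a complement receptor of Kupffer cells, read 3.36, 3.78, 2.86 and 4.49 against 7.13, 7.60, 7.89 and 8.96. Clec4f, the lectin that marks Kupffer cells, read 4.17, 4.34, 4.36 and 4.17 against 6.21, 6.66, 6.87 and 7.73, and Cd5l was 4.65-fold lower. Gpnmb, a glycoprotein of lysosome-rich macrophages, read 8.63, 7.80, 8.86 and 8.59 against 5.19, 4.80, 4.61 and 6.15. The general macrophage markers Adgre1 (0.10) and Cd68 (0.85) overlapped, and the whole list had a median of 0.21. Its list mean ran from -0.65 to -0.23 in the low set, from -0.67 to 0.24 in the high set and from -1.13 to 1.58 in the livers. Cd14, the co-receptor for endotoxin, was 7.72-fold higher. It read 9.24 to 10.34 in the low set, 6.36 to 6.88 in the high set and 4.49 to 8.59 in the livers.

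**Figure D4:**
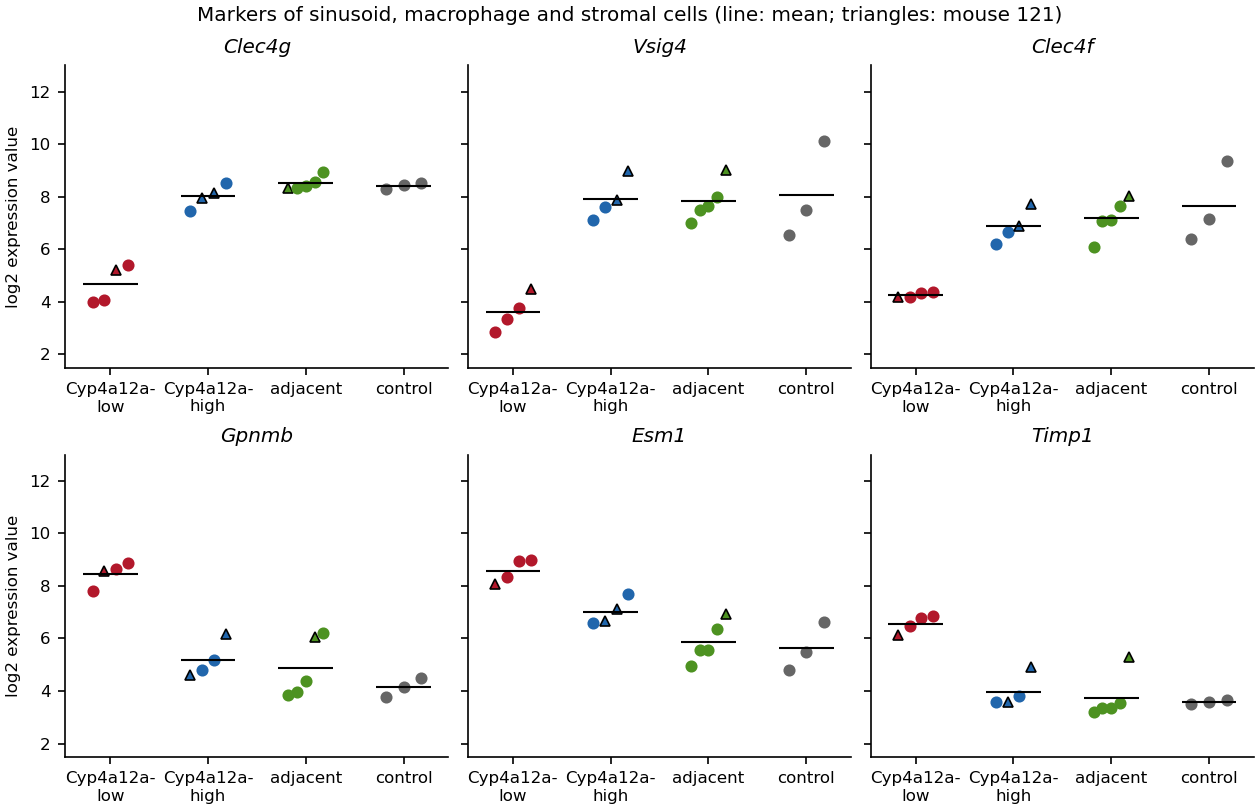
Log2 values of 6 genes of sinusoidal endothelium (Clec4g), Kupffer cells (Vsig4, Clec4f), macrophages (Gpnmb), sprouting endothelium (Esm1) and stroma (Timp1) on every array, by group, with the mean as a line and mouse 121 as triangles. The first 3 genes are low and the last 3 high in the Cyp4a12a-low tumours, and control and adjacent livers spread by several log2 units in Vsig4 and Clec4f.

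Some stromal and matrix genes were higher, and most members of both lists were not counted. Of 28 stellate cell and fibroblast markers 6 were higher and 1 lower (median 0.40). Timp1, an inhibitor of metalloproteinases, was 6.05-fold higher, the collagen cross-linking Loxl2 3.53-fold and the collagens Col1a1 and Col3a1 3.01-fold and 2.50-fold. The lower member was Lrat, which stores retinol in resting stellate cells, at 4.37, 4.83, 4.58 and 4.55 against 4.90, 5.74, 5.44 and 6.52. Of 20 matrix genes 3 were higher, the macrophage elastase Mmp12 (4.69-fold), the protease urokinase, Plau (2.38-fold), and tenascin C, Tnc (2.17-fold). The stellate list mean was 0.60 to 0.87 in the low set and -0.03 to 0.73 in the high set, where tumour 3 of mouse 121 was the highest. Lists of T and NK cells, B and plasma cells, neutrophils, interferon-stimulated genes, erythroid cells and other tissues had 0 counted, and acute phase genes had 1 higher, Fgl1 (2.05-fold). The part of cell composition in the hepatocyte genes above was not tested.

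The promoter of Gpnmb is shown as that of a higher gene with the motif TGANTCA, which AP-1 factors bind and which reads the same on both strands apart from its middle base. It covers 250 bases before to 50 after the start (RefSeq, GRCm38.p6, chr6:49036268-49036567, plus strand), with the match in capitals.
Gpnmb: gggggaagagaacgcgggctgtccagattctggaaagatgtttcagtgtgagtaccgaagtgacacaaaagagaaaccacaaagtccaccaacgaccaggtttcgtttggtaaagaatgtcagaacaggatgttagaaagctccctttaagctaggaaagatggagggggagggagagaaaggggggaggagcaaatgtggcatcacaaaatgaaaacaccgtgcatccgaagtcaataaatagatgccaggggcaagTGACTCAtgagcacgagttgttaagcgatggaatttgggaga
The motif stood in a window of 16 of the 99 higher genes with an entry (16.2%), of 15 of the 138 lower genes (10.9%) and of 8.34% of all genes with one. In neither printed promoter did the match overlap another of the 3 motifs.

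Mouse 121 gave a comparison inside 1 animal, and the tumours of the other mice gave one that shares no array with it. Across tumours 90, 123 and 81 against 124 and 93, 428 genes were lower (1.84%) and 390 higher (1.68%). In 244 of the 428 the unnumbered tumour of mouse 121 was below both of its other tumours (57.0%, against 32.1% of all genes), and in 57 it was above both. In 212 of the 390 it was above both (54.4%, against 32.3%), and in 69 below. The median difference within mouse 121 was -0.32 over the lower genes and 0.33 over the higher ones, against -1.37 and 1.38 across mice. At least 2-fold differences in the same direction were found in 79 and 82, where 232 (0.997%) and 296 (1.27%) of all genes had such differences, and in the opposite direction in 0 and 17. Unnumbered tumour 121 was chosen as a low-set member by its Cyp4a12a, so these shares describe the choice and are no independent check.

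The 6 lower genes furthest apart inside mouse 121 were Elovl3, Oat, Cyp2c38, Vsig4, Clec2h and Sult2a8. Elovl3 differed by -5.43 between the unnumbered tumour and the mean of tumours 2 and 3, Cyp2c38 by -4.29, Oat by -4.26 and Vsig4 by -3.93. Clec2h, a C-type lectin, differed by -3.14. On the higher side Akr1c18 differed by 6.32, Spink1, a trypsin inhibitor, by 4.77, Cdh17 by 4.59, Slpi by 3.73 and Gldn, gliomedin, by 3.69. Akr1c18, Cyp2b9, Spink1 and Gldn overlapped between the sets once the other mice were added. Spink1, for example, read 9.10 in tumour 124 and 6.75 in tumour 90.

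**Figure D5:**
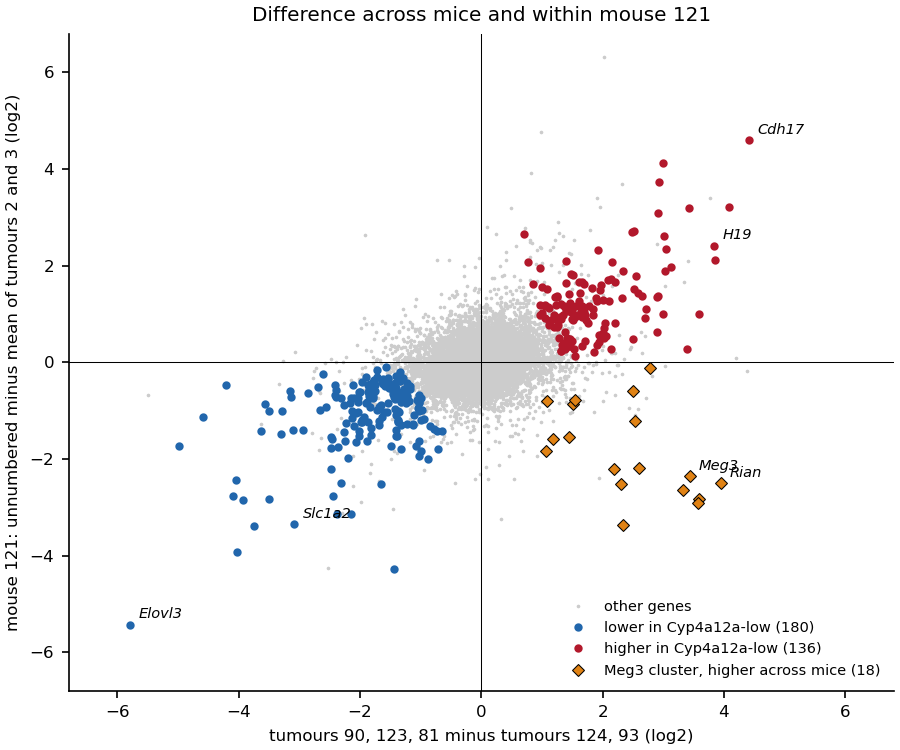
Each point is a gene, with the log2 difference of tumours 90, 123 and 81 from tumours 124 and 93 (horizontal) and of the unnumbered tumour of mouse 121 from the mean of its tumours 2 and 3 (vertical). Elovl3 (-5.43 vertically) and Cdh17 (4.59) lie at opposite corners, and 18 genes of the Meg3 cluster, higher across mice, lie below the horizontal axis.

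The 17 genes that went the other way by at least 2-fold in mouse 121 were mostly from one imprinted region, a pattern chosen after its values were seen. Of the 17, 13 lie between Dlk1 and Dio3 in RefSeq, on chromosome 12, in the cluster whose long RNAs Meg3, Rian and Mirg and many miRNAs are expressed from the maternal chromosome. The arrays held 67 genes there, 52 of them miRNAs. Across mice 18 of the 67 were higher and 0 lower, and over all 8 tumours 0 were counted. Some of the 18 reached 2-fold only through tumour 81. Mir434 read 2.73, 2.59 and 10.53 in tumours 90, 123 and 81 and 2.57 and 2.44 in tumours 124 and 93. Mir431 read 4.40, 4.43 and 9.73 against 3.68 and 3.71. The 4 other opposite genes were Pfkfb3, of glycolysis control, the stress gene Gadd45b, a predicted gene and an immunoglobulin segment.

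Meg3 read 9.65, 9.93, 8.97 and 7.76 in the low set and 5.68, 6.46, 10.81 and 9.42 in the high set. Rian read 7.75, 9.04, 7.25 and 5.88 against 3.65, 4.46, 9.53 and 7.21. In both, tumour 2 of mouse 121 was the highest of the 8, tumours 124 and 93 were the lowest, and the adjacent livers lay at 5.02 to 7.72 for Meg3 and 3.15 to 5.51 for Rian. The 18 genes were chosen as higher in tumours 90, 123 and 81 than in 124 and 93. The region itself was singled out by low values in the unnumbered tumour of mouse 121 beside its 2 others. Only the values in the livers were free of both choices. Their median against control liver was 3.74 in tumour 2 of mouse 121, 2.60 in tumour 81, 2.36 in tumour 123, 1.22 in tumour 3 of mouse 121, 1.15 in tumour 90 and 0.65 in the unnumbered tumour of mouse 121. It was -0.20 in tumour 124 and 0.09 in tumour 93, and -0.17 to 0.45 in adjacent livers. Over all 67 genes of the interval the medians were far smaller, with the highest, 0.75, again in tumour 2 of mouse 121. They were 0.46 in tumour 123, 0.31 in tumour 90, 0.18 in tumour 81, 0.16 in tumour 3 and 0.03 in the unnumbered tumour of mouse 121. Levels of Meg3 and Rian thus varied among tumours of both sets and of 1 mouse.

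Tumour 81 differed from every other array in a stretch of this cluster. Mir434 read 10.53 there and 2.38 to 3.03 on the 15 other arrays, Mir136 9.16 against 2.11 to 2.56, Mir127 8.77 against 2.09 to 3.29 and Mir431 9.73 against 3.41 to 4.99. Rtl1, an imprinted gene derived from a retrotransposon, read 8.23 against 2.40 to 3.79, and its antisense RNA 6430411K18Rik 8.31 against 2.65 to 4.12. The 6 genes are neighbours, and the named miRNAs lie within or close to the region antisense to Rtl1. Whether a probe set named for a miRNA reads the hairpin or a longer transcript is not known, and a transcript and its antisense partner may not be told apart.

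The mature miRNAs of the probe sets that carry these patterns are printed 5′ to 3′ from RefSeq (GRCm38.p6, all on the plus strand of chromosome 12), with the seed, bases 2 to 8, in capitals. The first 8 belong to the stretch that was high in tumour 81, and the others to 5 genes that were higher across mice and lower in the unnumbered tumour of mouse 121.
miR-431-5p: uGUCUUGCaggccgucaugca
miR-431-3p: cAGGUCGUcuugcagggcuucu
miR-127-5p: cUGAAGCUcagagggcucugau
miR-127-3p: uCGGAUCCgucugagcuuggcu
miR-434-5p: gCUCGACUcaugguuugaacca
miR-434-3p: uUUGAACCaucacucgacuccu
miR-136-5p: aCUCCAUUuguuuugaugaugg
miR-136-3p: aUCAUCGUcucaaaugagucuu
miR-3070-5p: aGCCCCUGaccuugaaccuggga
miR-3070-2-3p: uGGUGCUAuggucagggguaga
miR-493-5p: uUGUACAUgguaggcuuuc
miR-493-3p: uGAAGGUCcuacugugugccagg
miR-377-5p: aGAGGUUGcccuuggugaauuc
miR-377-3p: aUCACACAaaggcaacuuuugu
miR-544-5p: uCUUGUUAaaaagcagagucu
miR-544-3p: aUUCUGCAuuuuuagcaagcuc
miR-453: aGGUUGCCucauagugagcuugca
Each of these 17 miRNAs has a seed of its own. Mir3070b read 4.57, 5.16, 6.43 and 2.97 in the low set and 3.40, 2.76, 6.23 and 4.75 in the high set, highest in tumour 81. Mir493 read 3.81, 6.11, 4.91 and 2.78 in tumours 90, 123, 81 and 121 and 2.41 and 2.79 in tumours 124 and 93, while tumours 2 and 3 of mouse 121 read 6.97 and 5.30. Mir377 read 5.23 in tumour 2 of mouse 121 and 2.66 in the unnumbered one, Mir544 6.10 and 3.14, and Mir453 7.54 and 4.25. In each of Mir3070b, Mir493, Mir377, Mir544 and Mir453, tumour 2 of mouse 121 read above tumour 3. That the unnumbered tumour was the lowest of the 3 in each was part of how these genes were chosen.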

How the data were processed

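Total RNA was amplified and labelled with biotin for one-colour arrays, 1 per sample, per the labels' protocols. The authors deposited log2 expression values. The submitters' processing notes list RMA and Partek with no version. Chip and genome build: not given in the sources used here. RMA equalises array distributions, so global shifts are lost, and the values of dim probe sets are compressed. Values ran from 1.47 to 12.9, with array medians of 4.37 to 4.50. Of 24479 probe sets 23281 had 1 gene symbol, 0 had several and 1198 had none, and 2 symbols had 2 probe sets, of which the brighter was kept. This gave 23279 genes.

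The comparison, made with Python 3.11.15 (pandas 2.3.3, numpy 2.4.6), is a description with no p-value. Fold differences are those of set means on the log2 scale. The members, the 38 gene lists (820 entries, 758 used) and the rules were chosen with earlier results of these data known. By rule, genes named are Cyp4a12a, Cyp4a12b, Axin1, H19 and Glul, the 12 largest non-overlapping differences each way without predicted genes, receptor families and miRNAs, up to 4 non-overlapping members of each list or else its first 2, and the 6 largest each way inside mouse 121. Defining cell type markers were named as well, and other genes after their values were seen. The counting was tested on simulated data. Alternatives were other normalizations, thresholds, a filter on low values, and arrays or mouse 121 left out. The number of arrays limits the precision, and the labels give no batch.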

Additional observations from a re-analysis of the deposited data

Results flagged for a closer look

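Sets of values, each over the 8 tumours or the 5 adjacent livers, were examined for a single array far from the others. Of 132 such sets, 12 held one. For independent, normally distributed values chance gives about 1 in 20. That rate does not apply here, because the sets share arrays and most of the genes were chosen for a split between the tumours. Tumour 81 was the array apart in 4 gene lists. It was the lowest of the 8 tumours in the list mean of hepatocyte transcription factors (-0.50 against control, others -0.24 to -0.04), of secreted hepatocyte proteins (-0.50, others -0.22 to 0.00211) and of cholesterol synthesis (-1.01, others -0.03 to 0.68). It was the highest in interferon-stimulated genes (2.02, others -0.38 to 0.64).

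The adjacent liver of mouse 121 was apart in 6 measures. Cyp2c54 read 7.51 there and 9.04 to 9.60 in the 4 other adjacent livers, Slco1a1 8.52 against 10.13 to 10.77, and Cd14 6.99 against 4.49 to 5.06. The means of p53 targets (0.30, others -0.01 to 0.07), T and NK cell markers (1.06, others -0.26 to -0.03) and B and plasma cell markers (0.55, others -0.10 to 0.04) were the highest of the 5. Elovl3 was lowest in the adjacent liver of mouse 81, at 8.48 against 10.29 to 10.70, which is still above all 4 Cyp4a12a-low tumours. Imprinted growth genes were highest in the adjacent liver of mouse 124, at 0.24 against -0.20 to -0.14.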

How the results depend on the processing

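No paired analysis was possible because the comparison has no test to which a block could be added. The differences inside mouse 121 stand in the report. The counts of 180 lower and 136 higher genes became 162 and 144 with quantile normalization, 196 and 127 with each array centred on its median, and 177 and 130 over the 12787 genes that exceeded the overall median on 3 or more arrays. Splitting at a Cyp4a12a value of 6 or 8 or by Cyp4a12b gave the same arrays. With a threshold of 1.5-fold they were 398 and 285, with 4-fold 38 and 32, and with none 848 and 708. Without mouse 121 they were 428 and 390, of which 169 and 130 were among the 180 and 136. Leaving out each tumour array in turn gave 169 to 312 lower and 140 to 227 higher. With fewer arrays it is easier for sets not to overlap, so these counts and those without mouse 121 are not like for like. Of 1554 differences of the 120 genes named by the rule, over these settings, 1553 moved by less than the spread within the sets. The other was Cyp4f16, at 2.90 without mouse 121. Much of this tally was fixed in advance. With a single tumour array left out, or tumours 2 and 3 of mouse 121 averaged, no gene could move further than that spread. Of 494 medians of the 38 lists 5 moved further than that: neutrophil markers (1.05) with the filter, T and NK cell markers (0.49) and pancreas, adipose and muscle markers (0.07) without mouse 121, and the growth hormone axis without tumour 90 (-0.16) or 124 (-0.15). The median of interferon-stimulated genes, 0.27, changed sign, to -0.22, without tumour 81, a move within the spread. Sets of 4 tumours from 6 mice, chosen for a value, allow no statement on how often such differences arise. Dim probe sets, such as those near 2 to 3, carry little information on low levels.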

Other observations

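Several tumours had genes at least 4-fold above all 15 other arrays, which were listed after the values were seen. Tumour 81 had 28 such genes, tumour 2 of mouse 121 had 15, tumour 123 had 7, tumour 124 had 6 and tumour 90 had 5. Tumours 93, 121 unnumbered and 121 number 3 had 0. Besides the 6 genes near Rtl1, those of tumour 81 included Ly6k (10.07, others at most 5.13), the regenerating lectins Reg3g (7.53, others at most 2.76) and Reg3b (7.72, others at most 4.16), Npy, neuropeptide Y (8.78, others at most 5.37), and Gucy2c, the guanylate cyclase of intestinal epithelium (8.24, others at most 4.45). The same tumour had 22 genes at least 4-fold below all others, among them Ces1d (4.44, others at least 8.07), Rgn (5.90, others at least 8.48) and Cyp3a11 (9.08, others at least 11.36).

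Tumour 90 stood out in Epo, erythropoietin (8.54, others at most 5.24), the heat shock gene Hspa1a (8.08, others at most 5.71) and Ankrd37 (8.45, others at most 6.23). G6pc, the last enzyme of gluconeogenesis, was at 5.26 in this tumour where the others were at least 8.52. Eif2s3y and Uty, genes of the Y chromosome, read 4.78 and 4.05 in tumour 90, where the others were at least 6.89 and 6.05. Why they were low in this tumour of a male mouse was not tested. Tumour 123 had the highest Gpc3, glypican-3 (10.39, others at most 7.76), Afp (9.23, others at most 6.66) and Cxcl3, a neutrophil chemokine (7.20, others at most 3.33), and the lowest Cyp7a1, which opens bile acid synthesis (3.05, others at least 6.24). Tumour 2 of mouse 121 had Cyp2b10, a P450 induced through the receptor CAR, at 10.50 where the others were at most 6.54, and Sult2a1 at 8.38 where they were at most 5.61. Tumour 124 had Brinp3 at 7.34, against at most 3.22 on the others, and the highest mean of NRF2 targets, 1.90 above control, where the other tumours lay between 0.28 and 1.12.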
